A study of Saccharomyces cerevisiae with 66 samples.

Results

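The genes described here encode the proteasome of budding yeast (Saccharomyces cerevisiae) and the ubiquitin supply and conjugation steps that serve it under stress. They were chosen by name and are 36 of the 6171 genes in the deposited count table. Of these, 14 encode subunits of the core particle (7 alpha and 7 beta subunits) and 18 encode subunits of the regulatory particle (6 ATPases and 12 non-ATPase subunits). The other 4 are RPN4, UBI4, UBC4 and UBC5. All 36 members were in the table and all 36 were kept by the filter on low counts, so none of them is missing from the counts below.

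The study measured poly(A)-selected RNA by strand-specific paired-end sequencing in diploid cells kept in sporulation medium, in strains whose factors of mRNA decay carry an auxin-inducible degron. The loss of each target protein is not measured in these files. There were 22 groups of 3 libraries: in each of 11 strains, 1 group was treated with IAA (indole-3-acetic acid, the auxin) and 1 with the vehicle DMSO. The tagged strains are named after their target, PAB1, the deadenylase complex members CAF40, NOT5 and POP2, the decapping factors DCP2, LSM1 and PAT1, the exonucleases RAT1 and XRN1, and the exosome nuclease RRP6, and the control strain, named WT, carries the TIR ligase without a tagged target. All strains share a MATa/alpha background with ho::LYS2, the markers lys2 and ura3, hisG insertions at leu2 and trp1, and a construct at his3 that the labels call p550. In 9 of the 10 tagged strains the genotype gives the target fused to 3V5-IAA7 with a KanMX6 marker, whereas the genotype label of the CAF40 strain shows no tag and its group comes from the title. The number at the end of the p550 and KanMX6 names runs upwards over the libraries of a strain. Cells were kept at 30 °C, and 500 µM IAA and 50 µM copper sulphate were added 3 h after transfer to sporulation medium, according to a protocol text that is the same for every library. The titles give a time of 4 h. Whether the DMSO cultures also received copper is not stated. The labels do not say whether the 3 libraries of a group came from separate cultures, so the p-values measure the spread between these libraries, which may be technical. In bulk RNA, fewer cells expressing a gene and less RNA per cell cannot be told apart.

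The proteasome degrades proteins that carry ubiquitin chains. Its core particle is a barrel in which alpha rings guard the entrance and beta rings hold the cutting sites, and its regulatory particle binds ubiquitin chains, removes them and unfolds the substrate with a ring of ATPases. In yeast the subunit genes are activated together by Rpn4, a transcription factor that binds the proteasome-associated control element and is itself rapidly degraded by the proteasome. The RPN4 gene is known to respond to heat shock factor and to the Yap1 and Pdr1 stress regulators. UBI4 encodes a polyubiquitin chain precursor that supplies free ubiquitin under stress and during sporulation. Ubc4 and Ubc5 are closely related ubiquitin-conjugating enzymes that act on short-lived and abnormal proteins, with UBC4 known mainly from growing cells and UBC5 from stationary cells.

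The element that most subunit genes share is shown here for the genes on which the results turn. It was searched as GGTGGCAAA on both strands, from 250 bases before to 50 bases after the start codon, in the RefSeq R64 reference sequence of strain S288C, from which the strains studied may differ. It was present upstream of 28 of the 36 members (77.8%) and of 27 of the 32 subunit genes (84.4%), compared with 72 of 6001 protein-coding genes of the reference (1.20%). In the subunit genes its first base lay between 183 and 84 bases before the start codon, on the strand of the gene in 19 and on the other strand in 8. No exact match was found in this window of PRE5, PUP1, RPN8, RPN10, RPN13, RPN4, UBC4 or UBC5. The sequences are given 5′ to 3′ on the strand that carries the motif, with the motif in capitals.
PRE2: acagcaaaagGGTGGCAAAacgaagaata
PRE3: aacggaatccGGTGGCAAAaaagggaaaa
PRE8: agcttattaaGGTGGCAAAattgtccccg
RPN1: tgtgttttacGGTGGCAAAaggcgagcac
RPN2: atttattttcGGTGGCAAAactggataca
RPN11: ggacctccaaGGTGGCAAAttcacaagaa
RPN12: aatttcaatgGGTGGCAAAtaatgtgtag
UBI4: cgaattcaaaGGTGGCAAAacccggagcc

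PRE2, RPN11 and PRE3 had the largest called rises among subunits in the NOT5, POP2 and RAT1 strains, RPN1 and RPN2 rose in the PAB1 strain, and RPN12 had the largest fall in DMSO libraries of the POP2 and LSM1 strains. UBI4 carries the same element although it encodes no subunit. A heat shock element, searched as 3 alternating units of GAA and TTC with any 2 bases between units, was found in 1 member, RPN4, and in 47 of 6001 protein-coding genes (0.783%). It lies 21 to 9 bases before the start codon of RPN4. A match to this pattern on 1 strand is also a match on the other. The strand opposite to the gene is printed, with the element in capitals.
RPN4: gattgcttGAAAATTCTAGAAaacttttg
The stress response element AGGGG, searched on both strands, was present in 8 of 36 members (22.2%), close to its share over all genes (21.6%). A match to these letters is a description of the sequence and not evidence of binding.

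**Figure D1:**
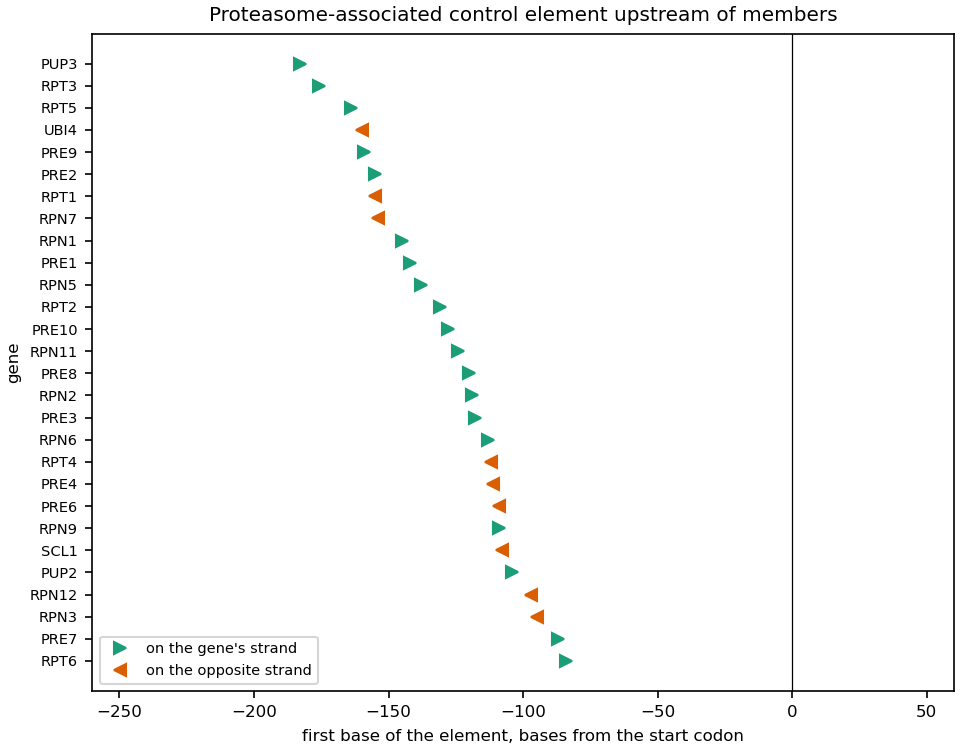
Position of the proteasome-associated control element upstream of the 28 members that carry it. The x axis gives the first base of the element in bases from the start codon, each row is 1 gene and the pointer gives the strand. The elements of the 27 subunit genes lie between 183 and 84 bases before the start codon.

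Total counts ran from 12619473 to 28302499 per library, so that 3 counts correspond to between 0.106 and 0.238 CPM (counts scaled to a fixed library total). Levels are given as CPM after scaling by the trimmed mean of M values (TMM), and differences as the log2 difference of IAA minus DMSO with its standard error. A gene is called when its p-value from limma, adjusted by the Benjamini-Hochberg method over 5828 genes, is under 0.05. This fit does not pair libraries by replicate number. Fits with the replicate number as a block are given as alternatives. All 7 early meiotic marker genes (IME1, IME2, SPO11, REC8, HOP1, ZIP1, DMC1) were expressed, with summed levels of 11285 to 14429 CPM in IAA libraries and 14067 to 15874 CPM in DMSO libraries of WT. Of 8 haploid-specific genes, 7 passed the filter on low counts (MFA2 did not), and these summed to 68.3 to 79.2 CPM in IAA libraries and 80.5 to 84.4 CPM in DMSO libraries of WT, with MFA1 at 0.748 CPM or less in every library. CUP1-1, the copper-induced metallothionein, lay at 771 to 4775 CPM in the 33 IAA libraries and at 4.36 to 176 CPM in the 33 DMSO libraries, and the copper-repressed uptake genes CTR1 and CTR3 went the other way. In all 11 strains, 2 of 4 copper genes were called higher and 2 were called lower. Within a tagged strain, exposure to copper, exposure to IAA and any loss of the target therefore cannot be told apart, and in WT there is no target to lose. The messenger RNA of the 10 targets checks no label, because the degron acts on protein. It was called in 3 of 10 strains with IAA against DMSO, with log2 differences from -0.66 (POP2) to 0.56 (PAB1). In DMSO libraries the target messenger RNA was already below that of WT in 9 of 10 strains, and was called lower in 4. These were PAB1 (log2 difference -1.25), NOT5 (-0.70), LSM1 (-0.66) and DCP2 (-0.53).

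UBC4 rose with IAA in every strain, the control included, and its close relative UBC5 was called in none. The 3 IAA libraries lay above the 3 DMSO libraries for UBC4 in all 11 strains. The response was smallest in the RRP6 strain and largest in the PAB1 strain. In the PAB1 strain UBC4 had 330.0, 528 and 408 CPM in IAA libraries, against 89.2, 90.9 and 87.1 CPM in DMSO libraries. That is 4.66-fold (log2 difference 2.22, SE 0.24, adjusted p = 9.19e-10). In WT it had 183, 197 and 159 CPM in IAA libraries and 52.9, 81.3 and 63.2 CPM in DMSO libraries, 2.75-fold (log2 difference 1.46, SE 0.22, adjusted p = 1.55e-05). The groups do not overlap in either strain.

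The RAT1 strain came second. Its IAA libraries held 133, 306 and 217 CPM of UBC4, against 63.0, 76.5 and 53.2 CPM in its DMSO libraries (log2 difference 1.69, SE 0.22, adjusted p = 6.09e-08). The second IAA library was the highest and the first the lowest of the IAA group there. In the RRP6 strain the values were 141, 131 and 106 CPM with IAA and 64.3, 79.2 and 62.0 CPM with DMSO (log2 difference 0.87, SE 0.23, adjusted p = 0.0140). The other 7 strains lay in between, at log2 differences from 0.89 (LSM1) to 1.26 (POP2), with adjusted p from 1.35e-05 (POP2) to 0.00916 (PAT1). Leaving out single libraries ended the call in PAT1, with an adjusted p given in brackets, without IAA replicate 2 (0.135), IAA replicate 3 (0.0891), DMSO replicate 2 (0.0518) or DMSO replicate 3 (0.0647), and in RRP6 without IAA replicate 1 (0.0839), IAA replicate 2 (0.0616), DMSO replicate 1 (0.0640) or DMSO replicate 3 (0.0889). When only the 6 libraries of a strain were fitted, it was not called in CAF40 (adjusted p = 0.108), LSM1 (adjusted p = 0.167), PAT1 (adjusted p = 0.0832) or XRN1 (adjusted p = 0.0585).

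UBC5 made up the larger mean share of the pair in all 22 groups and was not called with IAA in any strain. In WT it had 294, 282 and 352 CPM in IAA libraries and 396, 368 and 347 CPM in DMSO libraries, which overlap (log2 difference -0.26, SE 0.18, adjusted p = 0.497). In the XRN1 strain it had 218, 206 and 297 CPM in IAA libraries, below all DMSO libraries at 391, 315 and 319.6 CPM, and was not called (log2 difference -0.53, SE 0.18, adjusted p = 0.0557). With the replicate number as a block, which pairs the libraries of that strain, the adjusted p was 0.0220. Over the 11 strains its log2 difference ran from -0.53 to 0.14, the highest in the RAT1 strain. The LSM1 strain gave -0.40 (adjusted p = 0.105, and 0.0436 with the block). Leaving out 1 IAA library made it a called fall in 3 strains: XRN1 without IAA replicate 3 (0.0130), LSM1 without IAA replicate 1 (0.00281) and PAB1 without IAA replicate 1 (0.0445), with the adjusted p in brackets. In PAB1 it was also a called fall with total-count scaling (log2 difference -0.50, adjusted p = 0.0445).

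The balance between both genes, whose coding sequences have the same length, moved with them. UBC4 made up 38.4, 41.1 and 31.0 percent of the summed UBC4 and UBC5 level in IAA libraries of WT, against 11.8, 18.1 and 15.4 percent in DMSO libraries. In the PAB1 strain the share was 31.6, 56.9 and 46.8 percent with IAA and 11.1, 14.1 and 12.3 percent with DMSO. The PAB1 strain thus held both the widest range among IAA libraries and the lowest DMSO mean of all strains (12.5 ± 1.49 percent, SD, n = 3). Coding sequences of UBC4 and UBC5 are 77.2% identical in the reference, and no stretch of 50 bases is shared between them, so that paired reads of 100 bases can be told apart.

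**Figure D2:**
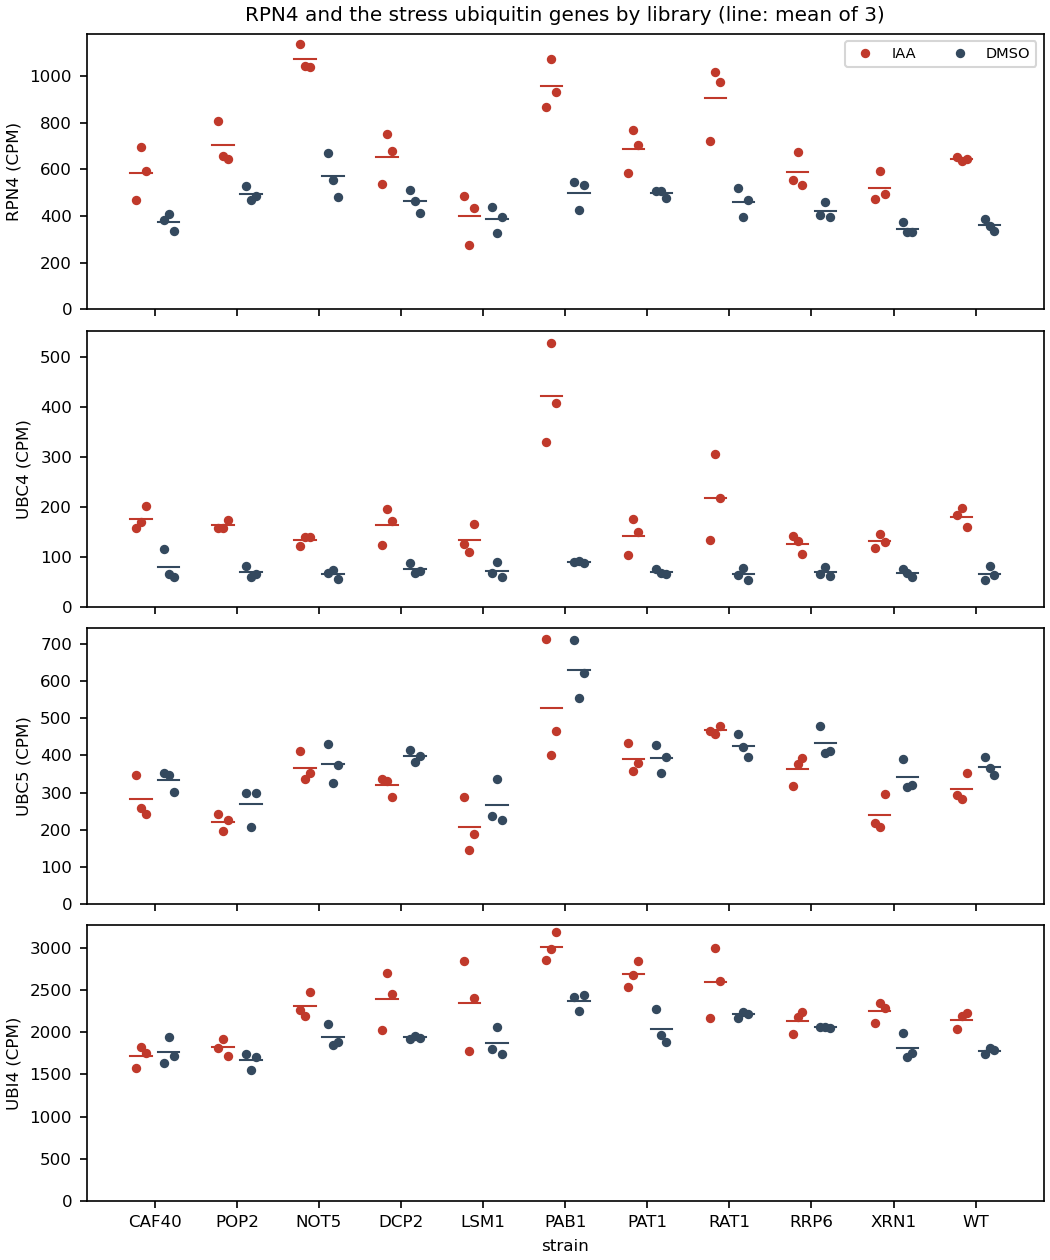
Level of RPN4, UBC4, UBC5 and UBI4 in each of the 66 libraries, in TMM-scaled CPM on linear axes, by strain, with IAA libraries (red) left of DMSO libraries (blue). Points are libraries and lines are means of 3. UBC4 is higher with IAA in all 11 strains, RPN4 in all but LSM1, and UBC5 shows no such rise.

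RPN4, the activator of the subunit genes, rose with IAA in 7 of the 11 strains, and in 10 of 11 the IAA libraries lay above the DMSO libraries. The exception was the LSM1 strain. In WT it had 652, 636 and 646 CPM in IAA libraries and 386, 357 and 335 CPM in DMSO libraries (log2 difference 0.84, SE 0.16, adjusted p = 3.34e-04). The 3 IAA libraries of WT are close together and clear of the DMSO libraries. The RAT1 strain had 722, 1015 and 975 CPM with IAA and 518, 396 and 467 CPM with DMSO (log2 difference 0.96, SE 0.17, adjusted p = 1.37e-05). The PAB1 strain had 866, 1072 and 929 CPM with IAA and 544, 424 and 532 CPM with DMSO (log2 difference 0.94, SE 0.16, adjusted p = 1.89e-05). In the NOT5 strain the values were 1137, 1043 and 1038 CPM with IAA, the highest of any strain, and 672, 555 and 482 CPM with DMSO (log2 difference 0.92, SE 0.17, adjusted p = 2.67e-04). The rises in the other called strains were smaller, at 0.62 in CAF40, 0.59 in XRN1 and 0.50 in POP2, with adjusted p of 0.0105, 0.0114 and 0.0154 in that order.

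The LSM1 strain had 484, 277 and 436 CPM of RPN4 in IAA libraries and 438, 328 and 396 CPM in DMSO libraries. These ranges overlap (log2 difference 0.0096, SE 0.15, adjusted p = 0.974), and the sign of the difference depends on the setting. The DCP2, RRP6 and PAT1 strains gave 0.50, 0.48 and 0.45 without a call (adjusted p = 0.119, 0.0565 and 0.216). With the replicate block RPN4 was called in DCP2 (adjusted p = 0.0408) and RRP6 (adjusted p = 0.0192). In RRP6 it was also called with median-of-ratios scaling (adjusted p = 0.0497) and with total-count scaling (adjusted p = 0.0442). The call was lost, with the adjusted p in brackets, in CAF40 without IAA replicate 2 (0.116), IAA replicate 3 (0.0586) or DMSO replicate 3 (0.0808), in XRN1 without IAA replicate 2 (0.113) or DMSO replicate 2 (0.0672) and in POP2 without IAA replicate 1 (0.0860) or DMSO replicate 2 (0.0545). With only the libraries of the strain it was lost in CAF40 (adjusted p = 0.147), XRN1 (adjusted p = 0.116) and NOT5 (adjusted p = 0.0524).

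UBI4 was the most abundant member per length in WT, at 1556 ± 29.7 CPM per kb of coding sequence in DMSO libraries (SD, n = 3). With IAA it was called in the PAB1 strain alone, with 2862, 2985 and 3189 CPM in IAA libraries and 2421, 2255 and 2443 CPM in DMSO libraries (log2 difference 0.34, SE 0.12, adjusted p = 0.0282). These groups do not overlap, but the call was lost with total-count scaling (log2 difference 0.13, adjusted p = 0.406), with only the libraries of the strain (adjusted p = 0.294), and, with the adjusted p in brackets, without IAA replicate 2 (0.0577), IAA replicate 3 (0.122), DMSO replicate 1 (0.0520) or DMSO replicate 2 (0.0868). In LSM1, where it had 0.30 (adjusted p = 0.0654), UBI4 was called without IAA replicate 2 (0.00318) or DMSO replicate 2 (0.0467). In XRN1 it was called with total-count scaling (log2 difference 0.37, adjusted p = 0.0238), where the fit with TMM gave 0.31 (adjusted p = 0.0849). In WT it had 2033, 2192 and 2223 CPM with IAA and 1747, 1814 and 1789 CPM with DMSO, also without overlap and without a call (log2 difference 0.27, SE 0.11, adjusted p = 0.216). Its largest difference, 0.40 in the PAT1 strain, had an adjusted p of 0.0793. UBI4 consists of tandem ubiquitin repeats, and 18.2% of its windows of 50 bases recur in the reference. At 100 bases, the read length, 9.55% of its windows recurred, against 0% of those of RPL40A, RPL40B and RPS31. Exact repeats of that length were therefore not shared with these other ubiquitin genes. The level of UBI4 stays uncertain where reads could be placed in several ways.

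Among the 32 subunit genes, called changes with IAA were all rises, and most of them came from the NOT5, POP2 and RAT1 strains. In the control strain no subunit was called, and 2 members were, RPN4 and UBC4 (5.56% of members, against 1.68% of all genes called higher). The median log2 difference of the subunits in WT was 0.25, with all 32 above 0 (range 0.059 to 0.45), beside a median of -0.025 over all genes. The summed subunit level of WT was 15437, 17960.2 and 18691 CPM in IAA libraries and 14587, 14354 and 14409 CPM in DMSO libraries. All 3 IAA sums of WT thus lay above the DMSO sums without any single subunit being called by limma, and 5 of 36 members (13.9%) had an unadjusted p under 0.05, against 16.7% of all genes.

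In the NOT5 strain, whose target is a scaffold subunit of the CCR4-NOT deadenylase complex, 25 of 36 members were called higher with IAA (69.4%, against 6.14% of all genes). They were RPN4, UBC4 and 23 subunits: 4 of 7 alpha, 3 of 7 beta, 5 of 6 ATPase and 11 of 12 non-ATPase subunits. The 9 subunits not called were PRE6, PRE9 and PRE10 of the alpha ring, PRE1, PRE4, PRE7 and PUP1 of the beta ring, RPT5 and RPN8. PRE2, which encodes a catalytic beta subunit with chymotrypsin-like activity, rose most, with 1211, 809 and 921 CPM in IAA libraries and 628, 438 and 437 CPM in DMSO libraries. Its fold was 1.95 (log2 difference 0.96, SE 0.25, adjusted p = 0.00781). The lowest IAA library lies well above the highest DMSO library. The ATPase RPT2, which helps to open the gate of the core particle, had 1658, 1188 and 1437 CPM with IAA and 864, 649 and 711 CPM with DMSO (log2 difference 0.94, SE 0.20, adjusted p = 0.00146). All 32 subunits had positive differences, from 0.32 to 0.96 with a median of 0.69, beside -0.034 over all genes. The smallest was that of RPT5, another ATPase. The summed level was 32949.5, 24393 and 27778 CPM in IAA libraries and 19934, 15295 and 15736 CPM in DMSO libraries, a ratio of means of 1.67. Replicate 1 was the highest of its group in both treatments.

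The number of calls in NOT5 depends on how the spread is estimated. It was 1 when only the 6 libraries of the strain were fitted, and 7, 12 and 15 without IAA replicate 1, DMSO replicate 2 and DMSO replicate 3, while the median over the subunits stayed between 0.58 and 0.81 over the libraries left out. PRE2 itself was not called without IAA replicate 1 (0.0792) or with only these 6 libraries (0.0796), and RPT2 was not called with only these 6 (0.0598), with adjusted p in brackets.

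In the POP2 strain, whose target is the CAF1-type deadenylase of the CCR4-NOT complex, 17 of 36 members were called higher (47.2%, against 16.7% of all genes). These were RPN4, UBC4 and 15 subunits: the alpha subunit gene PRE8, 5 of 7 beta subunits (PRE1, PRE2, PRE3, PRE7, PUP3), 4 of 6 ATPases (RPT2, RPT3, RPT4, RPT5) and 5 of 12 non-ATPase subunits (RPN1, RPN6, RPN7, RPN9, RPN11). RPN11, the deubiquitinase of the regulatory particle lid, rose most, with 460.4, 488 and 542 CPM in IAA libraries and 289.9, 256 and 309 CPM in DMSO libraries (log2 difference 0.81, SE 0.20, adjusted p = 0.00142). The groups are well separated. The lid subunit RPN7 had 444, 451 and 481 CPM with IAA and 300.1, 237 and 271 CPM with DMSO (log2 difference 0.78, SE 0.19, adjusted p = 0.00120). All 32 subunits again had positive differences, with a median of 0.47 and a range of 0.13 to 0.81. The summed level was 14408, 14957 and 16183 CPM in IAA libraries and 12319, 9781 and 11632 CPM in DMSO libraries. With IAA the POP2 strain thus lay near the level of the WT DMSO libraries, and with DMSO below it. Without IAA replicate 3 or DMSO replicate 2, the count of called members was 6 or 5. In the same comparison 6 of 7 early meiotic markers were called lower, with sums of 4649.9 to 7506 CPM in IAA and 8106 to 11372 CPM in DMSO libraries, and the part of this in the subunit levels was not tested.

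In the RAT1 strain, whose target is the nuclear 5′ to 3′ exonuclease, 12 of 36 members were called higher (33.3%, against 7.04% of all genes): RPN4, UBC4 and 10 subunits, of which PRE6 is an alpha, PRE3 a beta, RPT2 and RPT5 ATPase and 6 non-ATPase subunits (RPN1, RPN2, RPN6, RPN7, RPN11, RPN12). With the replicate number as a block, which pairs these libraries, 21 members were called. PRE3, a catalytic beta subunit with caspase-like activity, rose most, with 524, 537 and 566 CPM in IAA libraries and 406, 255 and 298 CPM in DMSO libraries (log2 difference 0.79, SE 0.26, adjusted p = 0.0262). Its DMSO libraries differ more from each other than its IAA libraries. RPN12, a lid subunit needed late in assembly, had 589, 574 and 709.8 CPM with IAA and 477, 319 and 396 CPM with DMSO (log2 difference 0.67, SE 0.22, adjusted p = 0.0220). The subunits had a median of 0.52 and ranged from -0.37 to 0.79. The 2 subunits below 0 both encode alpha ring proteins, PRE8 and SCL1. PRE8 had 232, 211 and 257 CPM in IAA libraries, below all DMSO libraries at 366, 271 and 275 CPM, without a call (log2 difference -0.37, SE 0.18, adjusted p = 0.154). SCL1 had 361, 413 and 460.0 CPM with IAA and 543, 359 and 409.7 CPM with DMSO, which overlap (log2 difference -0.074, SE 0.19, adjusted p = 0.845).

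In RAT1, 2 DMSO libraries (replicates 1 and 2) carried raised CUP1-1, at 29.1 and 82.6 CPM. Without them 2 members were called and the subunit median was 0.52, with 1 DMSO library left that is assumed to vary like the other groups. The count was 4 with total-count scaling, and 2, 2, 5 and 7 without IAA replicate 3, DMSO replicate 2, DMSO replicate 3 and IAA replicate 2. PRE3 was not called, with the adjusted p in brackets, without IAA replicate 1 (0.0534), IAA replicate 2 (0.0574), IAA replicate 3 (0.0851), DMSO replicate 2 (0.153) or DMSO replicate 3 (0.0724), and RPN12 without IAA replicate 3 (0.118) or DMSO replicate 2 (0.158).

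**Figure D3:**
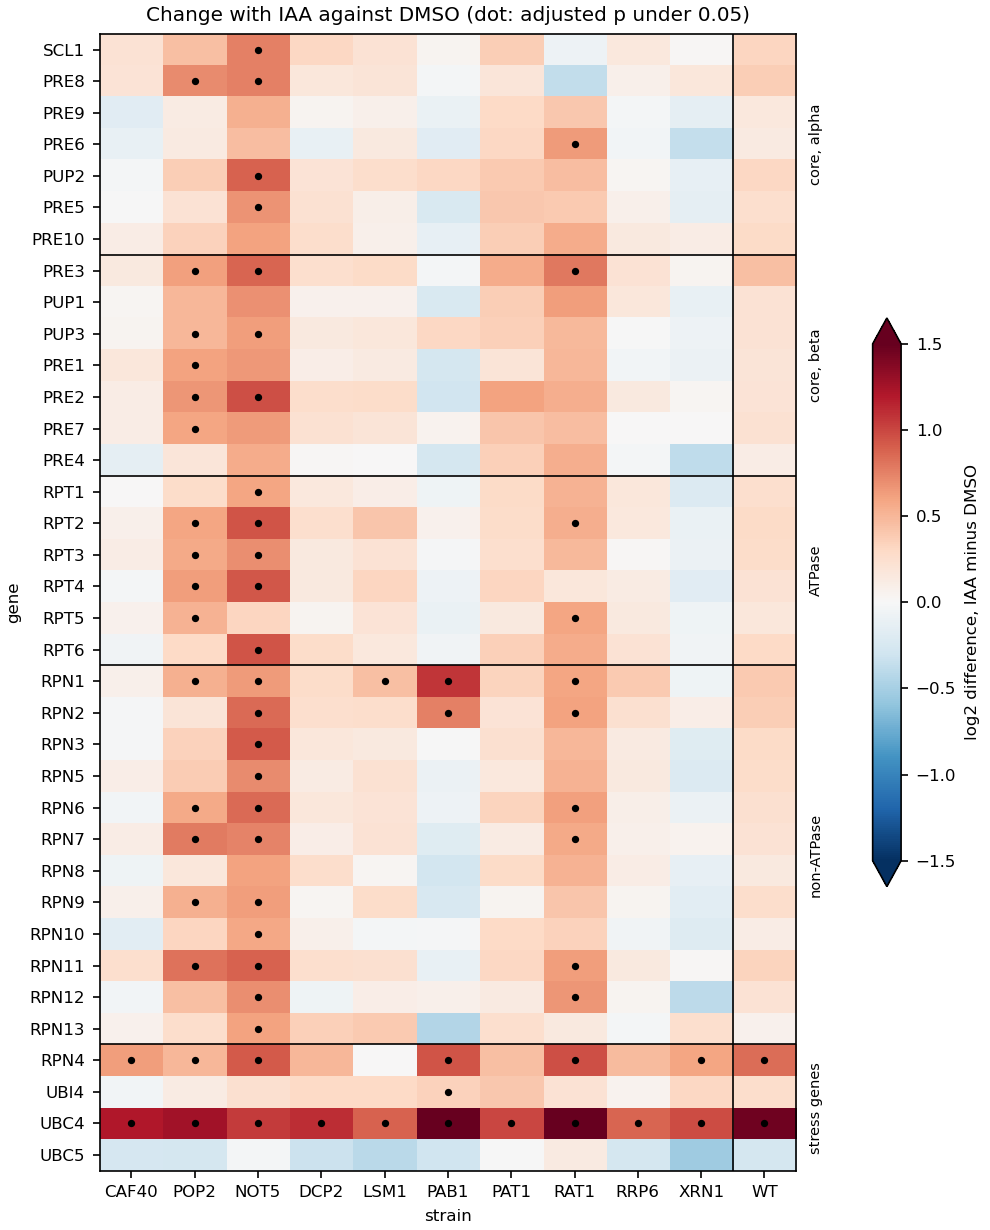
Log2 difference of IAA minus DMSO for the 36 members (rows, ordered by particle and role) in the 10 tagged strains and WT (columns), in colour from -1.5 to 1.5, with values beyond the scale in the end colours. Dots mark an adjusted p under 0.05. UBC4 is marked in all 11 strains, and the subunits in blocks for NOT5 (23), POP2 (15) and RAT1 (10).

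The PAB1 strain, whose target is the poly(A)-binding protein, departed from this pattern. Here 5 of 36 members were called higher (13.9%, against 8.15% of all genes): RPN4, UBI4, UBC4 and the subunits RPN1 and RPN2. Rpn1 and Rpn2 are the large scaffold proteins of the regulatory particle base, on which ubiquitin receptors dock. RPN1 had 4980.4, 3710.1 and 4554 CPM in IAA libraries and 2169, 1669 and 2452 CPM in DMSO libraries, 2.11-fold (log2 difference 1.08, SE 0.18, adjusted p = 1.10e-05). RPN2 had 7208, 3083 and 5460.2 CPM with IAA and 3693, 1791 and 3704 CPM with DMSO (log2 difference 0.76, SE 0.22, adjusted p = 0.00880). For RPN1 the groups are separate, and for RPN2 the second IAA library lies below DMSO replicates 1 and 3. The subunits as a whole had a median of -0.073 (-0.34 to 0.12 over fits without 1 library, so that its sign is not fixed), with 8 of 32 above 0, beside -0.038 over all genes. The lowest was RPN13, a ubiquitin receptor, at -0.44 without a call (adjusted p = 0.0518), and with the replicate block, which pairs these libraries, it was called lower (adjusted p = 0.00439). Early meiotic markers were called lower in 3 of 7 cases here, with sums of 12939 to 15619 CPM in IAA and 19363 to 21894 CPM in DMSO libraries, and their part in the subunit levels was not tested.

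RPN1 and RPN2 are the 2 subunit genes with more than 2000 bases of coding sequence. In PAB1, IAA against DMSO, their median log2 difference was 0.92, compared with -0.073 for the 12 subunits of 1000 to 2000 bases and -0.10 for the 18 shorter ones. As these 2 genes are the called subunits themselves, their median restates their rises. The part of coding length in these rises was not tested. Over all 32 subunits the rank correlation (Spearman) of coding length with the log2 difference of IAA minus DMSO was 0.25 in PAB1 and 0.30 in WT. For DMSO libraries of PAB1 against WT, the medians in the same order of length classes were 1.22, 0.41 and 0.47. The rank correlation was 0.12 there. Subunit levels per length also spread more in the PAB1 strain. The SD of log2 CPM per kb between the 32 subunits was 0.73, 0.63 and 0.66 in IAA libraries of PAB1 and 0.52, 0.52 and 0.56 in its DMSO libraries, whereas WT had 0.34, 0.31 and 0.36 with IAA and 0.36, 0.33 and 0.33 with DMSO. The PAB1 libraries lie outside the WT range, and the IAA libraries of PAB1 lie above its DMSO libraries. RAT1 had 0.47, 0.45 and 0.46 with IAA and 0.36, 0.36 and 0.37 with DMSO. Replicate 2 of PAB1 stood apart in both treatments, with a summed subunit level of 20082 CPM among 34633, 20082 and 27557 CPM in IAA libraries, and 16149 CPM among 30228, 16149 and 25917 CPM in DMSO libraries. Without IAA replicate 3 the count of called members was 3. The call of RPN2 was lost, with the adjusted p in brackets, without IAA replicate 1 (0.124), IAA replicate 3 (0.0519) or DMSO replicate 2 (0.182), and that of RPN13 appeared without IAA replicate 1 (0.00992) or DMSO replicate 2 (0.00129). Total-count scaling moved the median of all genes by -0.21 in this strain, and RPN1, at 0.87, stayed called, while RPN13 was called lower (log2 difference -0.66, adjusted p = 0.00316). With only the 6 libraries of the strain, neither RPN1 (adjusted p = 0.0514) nor RPN2 (adjusted p = 0.322) was called.

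The LSM1 strain, whose target belongs to the cytoplasmic Lsm ring that promotes decapping, had 2 called members, UBC4 and RPN1 (5.56%, against 8.13% of all genes). RPN1 had 1461, 694 and 1075 CPM in IAA libraries and 743, 733 and 787 CPM in DMSO libraries (log2 difference 0.45, SE 0.16, adjusted p = 0.0387). The second IAA library lies below the DMSO libraries and the other two above them. The summed subunit level is as scattered, with 20499.8, 8722 and 13244 CPM with IAA and 11541, 12749.8 and 10457 CPM with DMSO. Without IAA replicate 2, 14 members were called, without IAA replicate 3, DMSO replicate 1 or DMSO replicate 3 only 1, and with the replicate block, which pairs these libraries, 4. The call of RPN1 was lost, with the adjusted p in brackets, without IAA replicate 1 (0.336), IAA replicate 3 (0.137), DMSO replicate 1 (0.0782), DMSO replicate 2 (0.103) or DMSO replicate 3 (0.0581). The subunit median was 0.20, and ran from -0.12 to 0.50 over fits without 1 library, with either sign. In this strain 5 of 7 early meiotic markers were called lower with IAA, with sums of 4231 to 7757 CPM in IAA and 6877 to 11760.4 CPM in DMSO libraries, and their part in the subunit levels was not tested.

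The other 5 strains had no called subunit. CAF40 had 2 called members, UBC4 and RPN4 (5.56%, against 4.74% of all genes), and so had XRN1 (5.56%, against 5.35%). DCP2 (2.78%, against 1.1%), PAT1 (2.78%, against 1.06%) and RRP6 (2.78%, against 2.59%) had 1 each, UBC4. With the block, DCP2 and RRP6 had 2 each, with RPN4 as the second. Leaving out single libraries left 1 called member in CAF40 (IAA replicate 2 or 3 or DMSO replicate 3) and XRN1 (IAA replicate 2 or DMSO replicate 2), and 0 in PAT1 and RRP6 for the libraries named above for UBC4. Subunit medians were 0.30 in PAT1, 0.17 in DCP2, 0.10 in RRP6, 0.051 in CAF40 and -0.085 in XRN1, of which those of CAF40 (-0.0033 to 0.091) and XRN1 (-0.19 to 0.012) took either sign over fits without 1 library. In the PAT1 strain all 32 subunits were above 0 and the summed level was 21411, 20657 and 20936 CPM with IAA and 19949, 15623 and 16229 CPM with DMSO, without overlap. In the XRN1 strain 10 of 32 were above 0 and the sums were 10736, 12824 and 14669 CPM with IAA and 14577, 12869 and 12838 CPM with DMSO, which overlap. RPN12 had 192, 198 and 239 CPM in IAA libraries there, below all DMSO libraries at 293, 263 and 263 CPM, without a call (log2 difference -0.39, SE 0.19, adjusted p = 0.207).

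**Figure D4:**
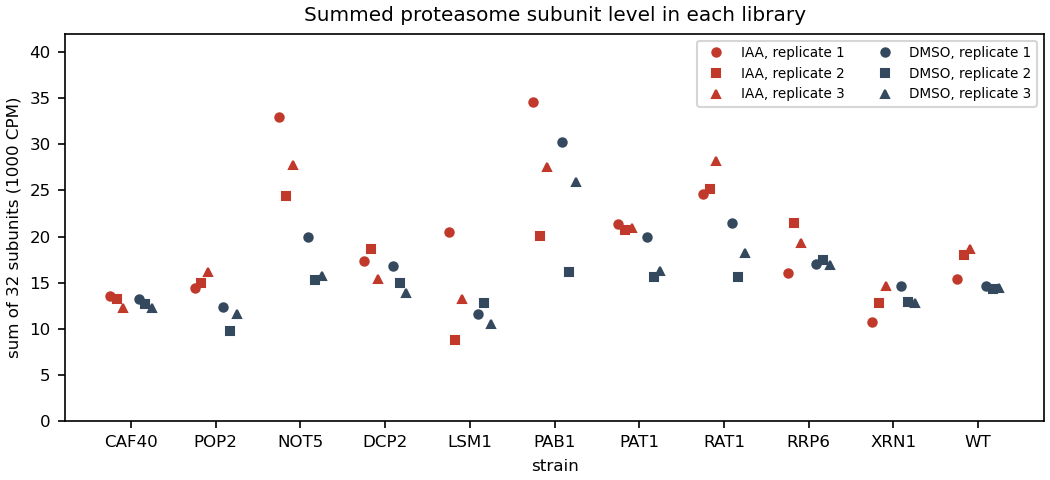
Sum of the 32 subunit levels in each library, in units of 1000 TMM-scaled CPM on a linear axis from 0, by strain, with IAA libraries (red) left of DMSO libraries (blue) and the replicate number as the marker shape. The NOT5 sums reach 32949.5 CPM with IAA and 19934 CPM with DMSO, and replicate 2 of PAB1 is the lowest of both PAB1 groups.

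Per length of coding sequence, subunit levels in WT DMSO libraries ran from 268 ± 19.4 CPM per kb (RPN7) to 719.9 ± 37.3 CPM per kb (RPN8, a lid partner of Rpn11; SD, n = 3 each), a range of 2.68-fold around a median of 396 CPM per kb. RPN4 lay below all of them at 225 ± 16.3 CPM per kb, and UBC4 was the lowest member at 147 ± 32.1 CPM per kb. UBC5 was second to UBI4 at 828 ± 54.8 CPM per kb. Over the 22 group means, the highest level was in NOT5 IAA libraries for 19 subunits, in a PAB1 group for 7 and in RAT1 IAA libraries for 6. The lowest was in POP2 DMSO libraries for 18, in LSM1 DMSO libraries for 8 and in XRN1 or CAF40 groups for 6. RPN2 varied most among subunits, from 299 CPM per kb in POP2 DMSO libraries to 1850.0 CPM per kb in PAB1 IAA libraries.

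Subunit genes with and without the printed element are described side by side, without a test. In NOT5 the 27 genes with the element had a median log2 difference of 0.71 and the 5 without it 0.61, with 20 and 3 called. In POP2 the medians were 0.53 with and 0.27 without, with 15 and 0 called. In RAT1 they were 0.54 with and 0.39 without, with 10 and 0 called. WT showed a gap as well, with medians of 0.27 with and 0.15 without, and 0 called in both. For the difference from the WT response, the medians with and without lay close together. They were 0.44 and 0.47 in NOT5, 0.23 and 0.21 in POP2, and 0.27 and 0.24 in RAT1. PRE8, the subunit that stood furthest below the others in RAT1, carries the element 120 bases before its start codon on the strand of the gene, as printed above. UBC4, the member with the most calls, has no exact match in the window searched.

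Whether a strain's response to IAA differed from that of WT was tested as the difference between both responses. With TMM scaling, all groups in the fit and no replicate block, no member passed in any of the 10 strains, so the larger subunit responses named above were not shown to exceed that of WT. With the block, 1 member passed in each of 3 strains whose IAA and DMSO libraries pair by number, while those of WT do not: RPN4 in LSM1, RPN1 in PAB1 and PRE8 in RAT1. Unadjusted p-values under 0.05 were found for 7 members in NOT5 (19.4%, against 8.65% of all genes), 3 in PAB1 (8.33%, against 12.1%) and 2 in XRN1 (5.56%, against 5.63%). They were found for 1 member (2.78%) each in POP2, LSM1 and RAT1, against 22.7%, 8.46% and 15.4% of all genes in that order. In CAF40, DCP2, PAT1 and RRP6 they were found for 0 members, against 2.64%, 3.19%, 4.32% and 2.88% of all genes. The same test called 9.69% of all genes in POP2, 6.88% in RAT1, 1.37% in PAB1, 0.48% in LSM1, 0.326% in NOT5, 0.0515% in PAT1, 0.0172% in RRP6 and 0% in CAF40, DCP2 and XRN1. These comparisons share the WT libraries.

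RPN4 in the LSM1 strain came closest. Its response was 0.0096 in LSM1 and 0.84 in WT, a difference of -0.83 (SE 0.22, adjusted p = 0.0567), and it was called, with the adjusted p in brackets, without IAA replicate 1 (0.00561) or DMSO replicate 2 (0.0390). With the replicate block the difference was -0.85 (adjusted p = 0.0156). RPN4 was called in these 3 of 17 alternative fits, and the adjusted p reached 0.715 in the others. PRE8 responded by -0.37 in RAT1 and 0.37 in WT (difference -0.74, SE 0.25, adjusted p = 0.0678). It was called with total-count scaling (adjusted p = 0.0469) and with only the 4 groups compared in the fit (adjusted p = 0.0352). With the block it was called as well (difference -0.73, adjusted p = 0.0232). These were 3 of 18 alternative fits, and the adjusted p reached 0.475 in the others. In the PAB1 strain, RPN1 differed from WT by 0.69 (SE 0.24, adjusted p = 0.148), and by 0.70 with the block (adjusted p = 0.0385). UBC4 differed by 0.76 (SE 0.33, adjusted p = 0.299). In NOT5 the largest subunit difference was that of PRE2, 0.76 (SE 0.33, adjusted p = 0.473), within a subunit median of 0.45. Subunit medians of the difference were also 0.26 in RAT1, 0.21 in POP2, -0.31 in PAB1 and -0.33 in XRN1.

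The tagged strains were also compared with WT in DMSO libraries, without auxin, all against the same 3 WT libraries and with differences given as the tagged strain minus WT. Some subunit genes were called higher in the PAB1 strain and some lower in the POP2 and LSM1 strains, without calls in the other 7. The shares of members called lower in POP2 and LSM1, given below, were close to those of all genes. The messenger RNA of the target itself was called lower than in WT in 4 of the tagged strains, as given above. In PAB1, 20 of 36 members were called higher (55.6%, against 22.3% of all genes) and none lower. They were 4 of 7 alpha, 4 of 7 beta, 1 of 6 ATPase and 8 of 12 non-ATPase subunits, with RPN4, UBI4 and UBC5. RPN2 rose most, with 3693, 1791 and 3704 CPM in PAB1 and 1154, 1124 and 1130.3 CPM in WT, 2.56-fold (log2 difference 1.36, SE 0.20, adjusted p = 5.22e-07). The lid subunit RPN8 had 2189, 1165 and 1887 CPM in PAB1 and 774, 721 and 701 CPM in WT (log2 difference 1.21, SE 0.22, adjusted p = 2.95e-05). RPN1 had 2169, 1669 and 2452 CPM in PAB1 and 999, 973 and 982 CPM in WT (log2 difference 1.08, SE 0.16, adjusted p = 8.21e-07). In all of these, PAB1 replicate 2 is the lowest of its group and still above WT. The subunit median was 0.49, with 31 of 32 above 0, beside -0.055 over all genes.

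UBC5 was also higher in the PAB1 strain, with 712, 555 and 622 CPM in PAB1 and 396, 368 and 347 CPM in WT (log2 difference 0.76, SE 0.19, adjusted p = 0.00138). RPN4 and UBI4 differed by 0.47 (SE 0.15, adjusted p = 0.00973) and 0.41 (SE 0.11, adjusted p = 0.00290). UBC4 gave 0.46 without a call (adjusted p = 0.0902), and was called without WT replicate 2 (0.0465) and with median-of-ratios scaling (log2 difference 0.53, adjusted p = 0.0434). The call of RPN4 was lost without PAB1 replicate 3 (0.0526) and with only the compared libraries (adjusted p = 0.0517), and both RPN4 and UBI4 lost it with total-count scaling, at 0.071 and 0.012, as did UBC5 at 0.36. The scaling decides part of this count. Total-count scaling moved the median of all genes by -0.40, after which 7 members were called, while the subunits lay above the median of all genes by 0.54 with TMM and 0.55 with total counts. Without DMSO replicate 1 or 3 of PAB1 the count was 10 or 12. In the same comparison 4 of 7 early and 4 of 4 later meiotic markers were called higher, with early sums of 19363 to 21894 CPM in PAB1 and 14067 to 15874 CPM in WT, and their part in the subunit levels was not tested.

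In the POP2 strain 6 members were called lower than in WT (16.7%, against 12.9% of all genes), and 1, RPN4, was called higher (2.78%, against 11.9%). The lower ones were RPN12, RPN8, RPN13, PRE6, PRE9 and UBC5. RPN12 fell most, with 187, 142 and 165 CPM in POP2 and 303, 304 and 312 CPM in WT (log2 difference -0.91, SE 0.19, adjusted p = 2.79e-04). RPN4 had 529.9, 468 and 485 CPM in POP2 and 386, 357 and 335 CPM in WT (log2 difference 0.46, SE 0.15, adjusted p = 0.0248). The groups are separate for both genes, in opposite directions. The subunit median was -0.36 with all 32 below 0. UBC5 in this strain gave -0.48 (adjusted p = 0.0464). That call of UBC5 was lost with median-of-ratios scaling (adjusted p = 0.0698), with total-count scaling (adjusted p = 0.0645), without the filter (adjusted p = 0.0760) and with only the compared libraries (adjusted p = 0.0598). The share of members called lower is close to that of all genes. RPN4 was not called without WT replicate 2 (0.0601), WT replicate 3 (0.0931), POP2 replicate 1 (0.0885) or POP2 replicate 3 (0.0573), and UBC5 without WT replicate 1 (0.128), WT replicate 2 (0.0952), WT replicate 3 (0.0690) or POP2 replicate 2 (0.309), with the adjusted p in brackets. The count of called members, 7 in both directions, was 1 without WT replicate 2, 2 without WT replicate 3 or POP2 replicate 2 and 3 without WT replicate 1, and was 15 when only the compared libraries were fitted.

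In the LSM1 strain 6 members were called lower (16.7%, against 14.6% of all genes), RPN12, RPN5, RPN7, PUP3, RPT2 and UBC5, and none higher. RPN12 again fell most, with 163, 209 and 162 CPM in LSM1 and 303, 304 and 312 CPM in WT (log2 difference -0.80, SE 0.19, adjusted p = 0.00112). UBC5 had 238, 335 and 227 CPM in LSM1 and 396, 368 and 347 CPM in WT (log2 difference -0.50, SE 0.18, adjusted p = 0.0342). In both genes LSM1 replicate 2 is the closest to WT. The subunit median was -0.30, with all 32 below 0. With the replicate block, where same-numbered libraries deviate together, 13 members were called, and without LSM1 replicate 1 or 3 only 2. UBC5 was not called without WT replicate 1 (0.109), WT replicate 2 (0.0727), LSM1 replicate 1 (0.147) or LSM1 replicate 3 (0.171) or with only the compared libraries (0.0782), with the adjusted p in brackets. Of the early meiotic markers, 4 of 7 in POP2 and 6 of 7 in LSM1 were called lower than in WT, with sums of 8106 to 11372 CPM in POP2, 6877 to 11760.4 CPM in LSM1 and 14067 to 15874 CPM in WT. Their part in the subunit levels was not tested.

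No member was called by limma in DMSO libraries of the other strains, where 0.824% of all genes were called in RRP6, 0.755% in RAT1, 0.172% in NOT5, 0.103% in DCP2, and 0.0515% each in CAF40, PAT1 and XRN1. An unadjusted p under 0.05 was found for 8 members in RAT1 (22.2%, against 12.8% of all genes), 2 in NOT5 (5.56%, against 13.1%), and 1 (2.78%) each in DCP2 and PAT1, against 4.65% and 11.4% in that order. It was found for 0 in CAF40, RRP6 and XRN1, against 6.14%, 11.2% and 2.16% of all genes. All 32 subunits were above 0 in RAT1 (median 0.35), RRP6 (median 0.26) and PAT1 (median 0.25), and 31 were in NOT5 (median 0.25). RPN4 in the NOT5 strain had 672, 555 and 482 CPM in NOT5 and 386, 357 and 335 CPM in WT (log2 difference 0.66, SE 0.15, adjusted p = 0.0507), just outside the threshold, and was called with median-of-ratios scaling (adjusted p = 0.0408), with total-count scaling (adjusted p = 0.0417), without the filter (adjusted p = 0.0406) and without NOT5 replicate 3 (0.0218).

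**Figure D5:**
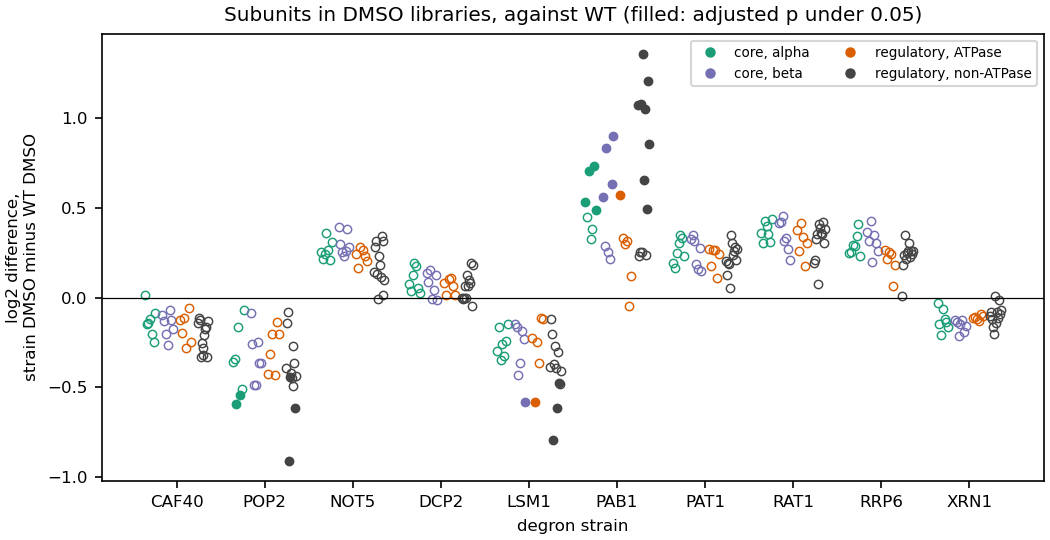
Log2 difference between the DMSO libraries of each tagged strain and those of WT for the 32 subunit genes, coloured by particle and role. Each circle is 1 gene and filled circles have an adjusted p under 0.05. The 17 filled circles of PAB1 lie above 0, and the 5 each of POP2 and LSM1 lie below 0.

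The wider pathway was read from a list of 45 genes that are not members, of which 43 were in the table. It held assembly chaperones, proteasome partners, the Cdc48 complex, other ubiquitin enzymes, ubiquitin fusion genes and the activators of RPN4. The 2 genes not in the table were the ubiquitin fusion genes RPL40A and RPL40B, so their levels are not known here. With IAA against DMSO, POP2 had 14 of 43 called higher (32.6% of the list, against 16.7% of all genes) and 4 lower (9.30% of the list, against 19.5% of all genes). NOT5 had 10 higher (23.3% of the list, against 6.14% of all genes) and 1 lower (2.33% of the list, against 4.08% of all genes). RAT1 had 13 higher (30.2% of the list, against 7.04% of all genes) and 3 lower (6.98% of the list, against 13% of all genes). PAB1 had 9 higher (20.9% of the list, against 8.15% of all genes) and 2 lower (4.65% of the list, against 14% of all genes), and LSM1 had 7 higher (16.3% of the list, against 8.13% of all genes) and 2 lower (4.65% of the list, against 10.4% of all genes). CAF40 had 4 higher (9.30% of the list, against 4.74% of all genes) and WT 1 (2.33% of the list, against 1.68% of all genes), and DCP2, PAT1, RRP6 and XRN1 had 0. The WT gene was ADD66, a chaperone of core assembly (log2 difference 0.36, SE 0.10, adjusted p = 0.0406), whose call was lost without any 1 of the 6 libraries, with adjusted p from 0.0710 to 0.196. In NOT5 the largest changes were rises of DDI1 (0.91, adjusted p = 0.00831), a shuttle factor, UFD1 (0.88, adjusted p = 0.00211), a cofactor of Cdc48, and UBP6 (0.74, adjusted p = 0.0146), a deubiquitinase bound to the proteasome. The call of DDI1 was lost without IAA replicate 1 (0.0796) or DMSO replicate 2 (0.0510), with the adjusted p in brackets. That of UBP6 was lost without IAA replicate 1 (0.117), DMSO replicate 2 (0.0815) or DMSO replicate 3 (0.0541). With only the libraries of the strain, neither DDI1 (adjusted p = 0.0679) nor UBP6 (adjusted p = 0.0950) was called. In POP2 the largest changes were UFD1 (0.87, adjusted p = 2.08e-04), IRC25 (-0.86, adjusted p = 1.03e-05) and UBA1 (0.83, adjusted p = 6.59e-05).

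UBA1 encodes the ubiquitin-activating enzyme, and in the PAB1 strain it had 2213, 1850.4 and 2128 CPM with IAA and 818, 831 and 1054 CPM with DMSO (log2 difference 1.19, SE 0.18, adjusted p = 1.52e-06). In PAB1, CDC48, the segregase that extracts ubiquitin-tagged proteins, rose by 0.95 (adjusted p = 8.46e-04) and the ligase gene UFD4 by 0.95 (adjusted p = 6.80e-08). With only the libraries of the strain, CDC48 was not called (adjusted p = 0.112). In RAT1, IRC25, which encodes a chaperone of alpha ring assembly, had 13.1, 15.4 and 13.3 CPM with IAA and 35.3, 35.0 and 31.4 CPM with DMSO (log2 difference -1.28, SE 0.16, adjusted p = 1.78e-08). RPN14, a chaperone of base assembly, fell by 0.83 on the log2 scale (adjusted p = 2.53e-06) there, and UBA1 rose by 0.62 (adjusted p = 0.00321). In LSM1 the largest changes were PDR3, a stress regulator, at 0.87 (adjusted p = 2.91e-05), the conjugating enzyme gene UBC7 at -0.72 (adjusted p = 0.00191) and IRC25 at -0.68 (adjusted p = 3.63e-04). With only the libraries of the strain, PDR3, UBC7 and IRC25 were not called (adjusted p = 0.0747, 0.325 and 0.209). In CAF40 the largest changes were UBA1 at 0.65, UBC6 at 0.65 and PDR3 at 0.59 (adjusted p = 0.0104, 1.32e-04 and 0.0102). In CAF40 the call of UBA1 was lost without IAA replicate 2 (0.0674) or IAA replicate 3 (0.0551), with the adjusted p in brackets. That of PDR3 was lost there without IAA replicate 2 (0.0904) or IAA replicate 3 (0.124). With only the CAF40 libraries, UBA1, UBC6 and PDR3 were not called (adjusted p = 0.106, 0.0979 and 0.203). In RAT1 the call of UBA1 was lost without IAA replicate 3 (0.0546). Without the DMSO libraries with raised CUP1-1 its rise in RAT1 was 0.49. In the RAT1 strain 2 genes of the list were called lower relative to the WT response, in POP2 and PAB1 1 in each direction, and 0 in the other strains.

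In DMSO libraries against WT, 21 of 43 list genes were called higher in PAB1 (48.8% of the list, against 22.3% of all genes) and 7 lower (16.3% of the list, against 23% of all genes). POP2 had 2 higher (4.65% of the list, against 11.9% of all genes) and 8 lower (18.6% of the list, against 12.9% of all genes), LSM1 had 2 higher (4.65% of the list, against 15.6% of all genes) and 3 lower (6.98% of the list, against 14.6% of all genes), and the other 7 strains had 0. In PAB1 the largest changes were those of UBC11 at 2.15 (adjusted p = 0.0164), RPS31, a ubiquitin fusion with a ribosomal protein, at -1.53 (adjusted p = 0.00854), and ECM29, a proteasome-associated protein, at 1.49 (adjusted p = 3.06e-08). The call of UBC11 was lost without WT replicate 2 (0.113), PAB1 replicate 1 (0.136) or PAB1 replicate 3 (0.0728). It was also lost with only the compared libraries (adjusted p = 0.123). ECM29 and CDC48 carry the element printed above in their own promoter windows, as do UBA1 and YAP1, which makes 4 of the 45 list genes (8.89%). In POP2 the largest were UBR2 at -1.12 (adjusted p = 9.88e-04) and MUB1 at -0.88 (adjusted p = 3.03e-05), which encode the ubiquitin ligase of Rpn4 and its partner, and TOM1 at -0.69 (adjusted p = 0.00159). In LSM1 they were MUB1 at -0.65 (adjusted p = 0.00132), PDR1 at -0.55 (adjusted p = 0.00436) and RSP5 at -0.35 (adjusted p = 8.25e-04).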

How the data were processed

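The deposited table holds, for 66 libraries, whole-number counts per gene on the values as the authors deposited them, in columns that also carry leading rows of principal component scores, which were left out. Because of those rows the columns taken whole were typed as neither pure count nor score, and a test on log values was chosen. No negative binomial count model was run, although the gene rows that remain are whole-number counts and would allow it. The submitters' processing notes name STAR 2.7.10a, RSEM 1.3.1 and DESeq2 1.48.1 without a role, and the genome build and annotation are not given in the sources used here. 6 further columns that match no sample used here were not used. Gene names were taken by systematic name from the RefSeq table of R64, which held 5626 of 6171 identifiers, and the promoter sequences are those of that reference.

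Genes were kept with at least 0.484 CPM (10 counts at the median library) in 3 libraries and 15 counts in all, which left 5828 and removed 343. Libraries were scaled by TMM (factors 0.630 to 1.17), trimming 0.3 of log ratios and 0.05 of abundances. Log2 CPM with a pseudocount of 0.5 counts and voom weights were fitted by limma 3.58.1 in R 4.3.3, with 1 mean for each of 22 groups, and 31 comparisons were each adjusted by the Benjamini-Hochberg method, with adjusted p under 0.05 called. On simulated counts for IAA against DMSO in the POP2 strain over 5828 genes, 100 of 100 changed genes were recovered at a log2 change of 1 and 100 of 100 at 2. The simulation gave all genes the same dispersion, drew them independently and changed only genes well above the floor. It therefore checks the fit and does not measure how many changes under 1 would be found in these libraries. Depth was 12619473 to 28302499 counts, and the floor of 3 counts covers counting error only. Summaries and figures used Python 3.11.15, pandas 2.3.3, numpy 2.4.6 and matplotlib 3.10.9.

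The members, lists and named genes were chosen with earlier results of these data known. The 4 genes outside the particle were always named, with the called subunit of the largest rise and fall in each comparison and up to 3 called genes of the pathway list. RPT2, RPN7, RPN8, RPN13, PRE8 and SCL1, RPN12 in RAT1 and XRN1, RPN2 with IAA and RPN1 in DMSO libraries in PAB1, and the genes named in the test against the WT response were chosen after their values were seen. Replicate numbers come from the labels. Same-numbered IAA and DMSO libraries deviated together (every correlation of deviations over 0.1) in 8 of 11 strains, with correlations from 0.163 to 0.696. These strains were DCP2, LSM1, NOT5, PAB1, PAT1, RAT1, RRP6 and XRN1. In DMSO libraries the same held for LSM1 and WT (0.142 to 0.321). Only these are described as paired where the block is given. The main fit, on which the calls rest, had no replicate block and paired no libraries. Alternatives were median-of-ratios and total-count scaling, no filter, fits of the compared groups alone, the replicate block, each library left out in turn, and the DMSO libraries with raised CUP1-1 left out.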

Additional observations from a re-analysis of the deposited data

Results flagged for a closer look

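PRE8, an alpha ring subunit gene, moved in opposite directions in the RAT1 strain and in WT, in every library. It had 232, 211 and 257 CPM in IAA libraries and 366, 271 and 275 CPM in DMSO libraries of RAT1, and 274, 321 and 292 CPM in IAA libraries and 216, 236 and 237 CPM in DMSO libraries of WT. The difference between both responses was -0.74 on the log2 scale (SE 0.25, limma, unadjusted p = 0.00522, adjusted p = 0.0678), just outside the threshold. It was called in 3 of 18 alternative fits, and the adjusted p reached 0.475 in the others. DMSO replicates 1 and 2 of RAT1, which include the highest value at 366 CPM, carried raised CUP1-1.

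RPN12, a lid subunit gene, showed the same kind of opposition between the XRN1 strain and WT. It had 192, 198 and 239 CPM in IAA libraries and 293, 263 and 263 CPM in DMSO libraries of XRN1, and 317, 373 and 379 CPM in IAA libraries and 303, 304 and 312 CPM in DMSO libraries of WT. The difference between both responses was -0.60 (SE 0.27, limma, unadjusted p = 0.0324, adjusted p = 0.782) and did not pass. Leaving out DMSO replicate 3 of XRN1, whose CUP1-1 level was raised, gave -0.63 (adjusted p = 0.584).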

How the results depend on the processing

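The median log2 difference of the 32 subunits moved by less than the spread between replicates under all 161 other settings and in all 246 fits without 1 library. In PAB1 it still moved far. For DMSO against WT there, total-count scaling put the median of all genes at -0.45, from -0.055 with TMM. The subunits lay 0.55 above it, so most of their median of 0.49 with TMM was lost. For IAA against DMSO in PAB1 the median of all genes moved by -0.21, and that of the subunits moved with it. Counts of called members moved in 32 of the 161 settings and in 39 of the 246 fits. With IAA against DMSO, median-of-ratios scaling gave 1 in LSM1 and 2 in RRP6, total-count scaling gave 1 in LSM1, 4 in RAT1 and 2 in RRP6, and fits of the compared groups alone gave 0 in CAF40, LSM1, PAT1 and XRN1, 1 in NOT5 and 2 in PAB1. Without the DMSO libraries with raised CUP1-1, 2 were called in RAT1. For the response against that of WT, total-count scaling and fits of the compared groups alone gave 1 in RAT1. In DMSO libraries against WT, NOT5 had 1 with median-of-ratios scaling, with total-count scaling and without the filter, PAB1 had 7 with total-count scaling and 10 in fits of the compared groups alone, and POP2 had 4 without the filter and 15 in fits of the compared groups alone. Fits of the compared groups alone have fewer libraries from which to estimate the spread. The cause of the other shifts was not tested.

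Fits with a replicate block called 2 members in DCP2, 4 in LSM1, 21 in RAT1 and 2 in RRP6 for IAA against DMSO, and 13 in LSM1 for DMSO against WT. Where the libraries share a number without deviating together, the block gave 20 in POP2 and 1 in NOT5 for DMSO against WT, and 1 in POP2 for the response against that of WT. For that response it also gave 1 each in LSM1, PAB1 and RAT1, where the libraries of the tagged strain pair and those of WT do not. It moved no other count of called members by over 1.5 times.

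Over fits without 1 library, counts ran from 1 to 2 in CAF40, 5 to 18 in POP2, 7 to 30 in NOT5, 1 to 14 in LSM1, 3 to 6 in PAB1, 0 to 1 in PAT1, 2 to 16 in RAT1, 0 to 1 in RRP6 and 1 to 3 in XRN1 for IAA against DMSO. They ran from 1 to 6 in POP2, 0 to 1 in NOT5, 2 to 7 in LSM1 and 10 to 29 in PAB1 for DMSO against WT, and from 0 to 1 in LSM1 and PAB1 for the response against that of WT.

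Among the named genes, signs turned for uncalled values alone. UBC5 in PAT1 was 0.0057 with median-of-ratios scaling and ran from -0.083 to 0.058 over fits without 1 library. UBI4 in CAF40 was 0.020 with total-count scaling and ran from -0.089 to 0.032 over fits without 1 library. RPN4 in LSM1 was -0.054 with total-count scaling and -0.0036 with the block, and ran from -0.15 to 0.26 over fits without 1 library. Over such fits UBC5 in NOT5 ran from -0.14 to 0.071 and SCL1 in RAT1 from -0.21 to 0.096. The subunit median, over such fits, took either sign for IAA against DMSO in LSM1 (-0.12 to 0.50), PAB1 (-0.34 to 0.12), XRN1 (-0.19 to 0.012) and CAF40 (-0.0033 to 0.091), for DMSO against WT in DCP2 (-0.022 to 0.14), and for the response against that of WT in LSM1 (-0.40 to 0.27) and PAT1 (-0.011 to 0.19).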
